A study of Homo sapiens with 6 samples.

Results

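Kinesins are motor proteins that walk along or take apart microtubules, and centromere proteins (CENP) build the platform on which chromosomes attach to the spindle. Their genes were read in senescent A549 cells, a human lung adenocarcinoma line, with and without salinomycin. Members were every gene whose symbol is KIF or KIFC followed by a number, or CENP followed by a single letter. This gave 62 of the 16670 genes listed, 41 kinesin genes and 21 CENP genes. The 41 kinesins comprise 8 mitotic kinesins named in the rule, 17 transport kinesins, 6 other kinesins of cell division and 10 with roles in cilia, signalling or other functions. Of the 62, 58 reached a deposited value of 11 in 3 or more libraries and were tested, and KIF4B, KIF6, KIF19 and KIF25 fell below that level.

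RNA sequencing covered 6 libraries, 3 labelled biological replicates for each group. Salinomycin cultures had been made senescent with 1 week of alisertib, a drug that blocks the kinase aurora A, and then received 2.5 µM salinomycin, an ionophore, for 48 h. Untreated cultures had the same week of alisertib and no salinomycin, so both groups carry the aurora A inhibitor. No library comes from A549 cells without alisertib, and whether some cells still divided was not tested. Nothing in the labels says that replicates came from separate cultures, so p-values measure the spread between these libraries of a single cell line, which may be technical.

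In textbook terms, mitotic kinesins push spindle poles apart, trim microtubule ends and close the division furrow, and their genes are usually read most in G2 and mitosis. Transport kinesins carry vesicles, endosomes and mitochondria and are used outside division as well. At the centromere, nucleosomes with the histone variant CENP-A recruit the constitutive centromere-associated network, called CCAN, which in turn holds the microtubule-binding outer kinetochore. Many mitotic genes have in their promoters a cell-cycle genes homology region, CHR, downstream of CCAAT boxes, the CHR being read by the DREAM and MYB-MuvB complexes and the CCAAT box by NF-Y.

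The promoters of KIF11 and KIF4A carry that arrangement on chromosomes 10 and X, and are shown because the 2 genes went opposite ways. Each line is 120 bases from RefSeq on GRCh38.p14, plus strand, 5′ to 3′, at chr10:92593010-92593129 for KIF11 and chrX:70289984-70290103 for KIF4A, and ends at the base before the RefSeq start site. Capitals mark the CCAAT box, here on the opposite strand as ATTGG, and the CHR, as TTTGAA or in reverse as TTCAAA.
KIF11: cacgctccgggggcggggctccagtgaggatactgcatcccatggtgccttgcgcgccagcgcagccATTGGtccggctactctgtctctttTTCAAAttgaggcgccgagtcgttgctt
KIF4A: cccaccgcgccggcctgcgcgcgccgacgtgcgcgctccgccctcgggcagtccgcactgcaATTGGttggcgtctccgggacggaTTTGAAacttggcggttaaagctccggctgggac

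In the KIF11 promoter the CHR letters begin 28 bases before the start site and the CCAAT letters 53 bases before it. In KIF4A they begin 34 and 58 bases before it. Both motifs were searched on both strands of the 250 bases before the start site, with TTTGAA or TTCGAA for the CHR and CCAAT for the other, and the motifs share no letters in either promoter. A promoter was held for 50 of the 62 members. The CHR letters were in 5 of 8 mitotic kinesins (KIF4A, KIF11, KIF15, KIF18A and KIF23) in 1 of 12 transport kinesins with a promoter (KIF5B) and in 2 of 17 CENP genes (CENPA and CENPC), against 14.3% of all 35116 RefSeq promoters. CCAAT was in 6 of 8 mitotic kinesins, 3 of 12 transport kinesins and 9 of 17 CENP genes, against 32% of all promoters. Of the mitotic kinesins, KIF4A, KIF11, KIF18A and KIF23 hold both motifs, and among them KIF11 and KIF23 rose, KIF4A fell and KIF18A did not pass the test. KIF22, another division kinesin, and KIF5B, CENPA and CENPC also hold both. Of these, KIF22 and KIF5B rose, CENPA fell and CENPC did not pass. A match describes letters only.

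Values below are normalised units, that is deposited values less the 1 the authors added, divided by trimmed-mean factors. Tests are limma fits on log2 of units plus 1, adjusted by Benjamini-Hochberg over all 13088 tested genes, with a threshold of 0.05, and fold changes are on that scale. Salinomycin moved most of the transcriptome: 81.9% of tested genes were called, 41.6% higher and 40.2% lower. Against this, 45 of the 58 tested members were called, 23 higher and 22 lower. The median log2 change of the tested members was -0.01 and that of all tested genes 0.02. A change of 2-fold or more past the threshold was seen for 11 members that rose and 12 that fell, beside 16.8% and 18.5% of all tested genes. In 46 members the salinomycin and untreated libraries did not overlap, which held for 83.0% of tested genes. Called genes thus made up 77.6% of the tested members, near the share of all tested genes, and the following gives which members went which way. The libraries are bulk RNA, so fewer cells of a type and less RNA per cell cannot be told apart.

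**Figure D1:**
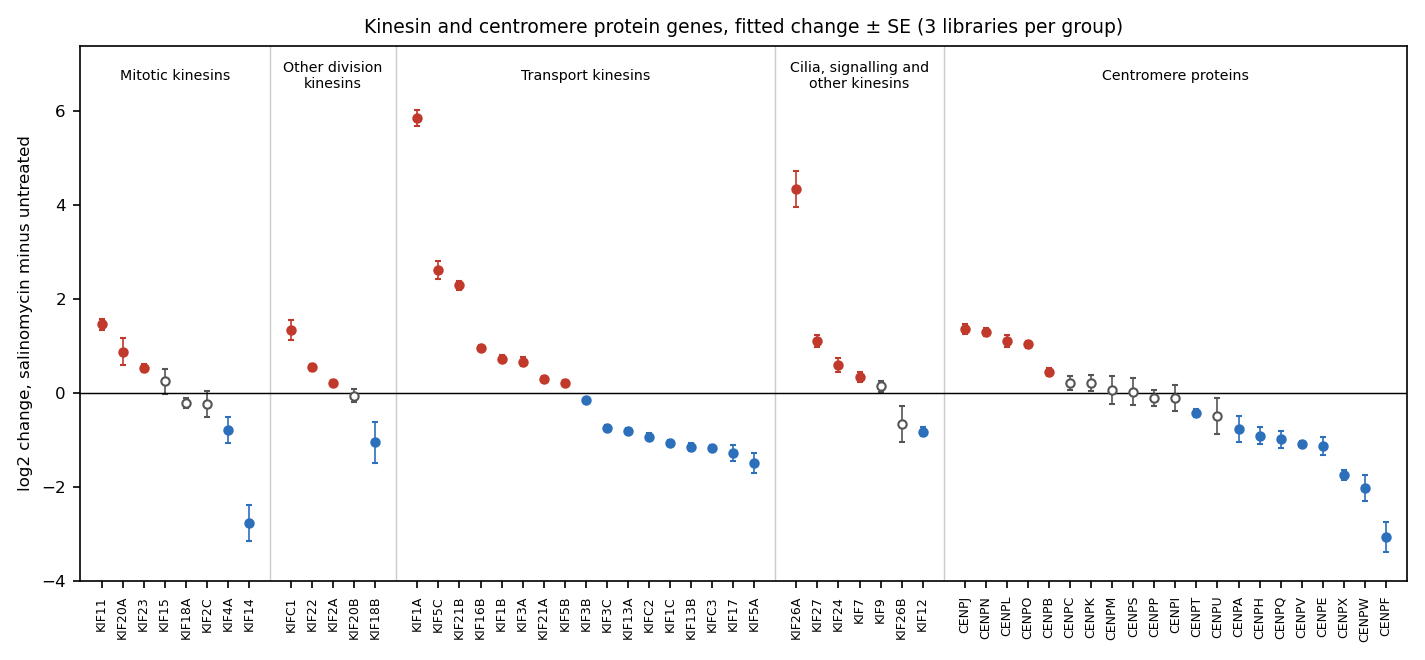
Log2 change, salinomycin minus untreated, of the 58 tested kinesin and CENP genes by functional group, with standard errors and n = 3 libraries per group. KIF1A, at 5.87, lies farthest above 0 and CENPF, at -3.06, farthest below it, and each of the larger groups has genes on both sides.

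Of the 8 mitotic kinesins, 3 rose, 2 fell and 3 did not pass the test, with a median log2 change of 0.02 that equals the 0.02 of all tested genes. Their called share was 62.5%, beside 81.9% of all tested genes. Called shares throughout were not matched for read level, and KIF15 and KIF2C, which did not pass, were weakly read. KIF11, the motor that slides spindle poles apart and the target of several anti-mitotic drugs, lies on chromosome 10 at 92593286-92655395. It had 214, 259 and 219 units in salinomycin libraries, against 85.4, 79.8 and 82.2 units in untreated libraries. All 3 salinomycin libraries were well above the highest untreated one. The gene was 2.76-fold higher (log2 1.47, SE 0.112, adjusted p = 1.25e-07). KIF23, a subunit of the centralspindlin complex of the dividing cell's midzone, had 305, 295 and 305 units with salinomycin, against 219, 198 and 204 units untreated. The groups were tight and apart, and the gene was 1.46-fold higher (log2 0.54, SE 0.083, adjusted p = 6.74e-05). KIF20A, which carries the chromosomal passenger complex to that midzone, was a weakly read gene with 22.2, 24.4 and 20.7 units with salinomycin, against 17.3, 10.6 and 8.54 units untreated. The groups did not overlap, although untreated replicate 1 stood close to the salinomycin libraries, and the gene was 1.84-fold higher (log2 0.88, SE 0.284, adjusted p = 0.0126). It shares exonic bases with 2 antisense genes that had far more units and were also higher: 3.3% with BRD8 (1701 units with salinomycin and 1029 untreated) and 1.7% with CDC23 (1674 units with salinomycin and 840 untreated). Whether counting separated strands was not given in the sources used here, so part of the KIF20A reads may belong to these genes and its call is uncertain.

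KIF14 and KIF4A, both needed for a normal end to cytokinesis, fell. KIF14, on chromosome 1 at 200551497-200620734, had 2.78, 6.56 and 1.88 units with salinomycin, against 21.6, 33.0 and 32.0 units in untreated libraries. The salinomycin values rest on 12 recovered reads over 3 libraries, against 75 reads untreated, and no library of a group came near the other group. KIF14 fell by 2.76 on the log2 scale (SE 0.384, adjusted p = 2.98e-05), which is 6.76-fold lower. With a pseudocount of 8 it fell by 1.66 on that scale, still past the threshold. KIF4A, a chromosome-bound motor of the anaphase midzone, had 13.9, 23.4 and 11.3 units with salinomycin, against 25.9, 30.9 and 25.6 units untreated. Salinomycin replicate 2 lay just below the lowest untreated library, and the other 2 lay farther down. KIF4A shares 1.7% of its exonic bases with the antisense gene PDZD11 (1428 units with salinomycin and 1011 untreated). Part of the KIF4A reads may therefore belong to PDZD11. KIF4A fell by 0.79 on the log2 scale (SE 0.276, adjusted p = 0.02), a call lost under 4 alternatives: library-size scaling (adjusted p = 0.0616), and leaving out salinomycin replicate 1 (0.0583), salinomycin replicate 3 (0.0782) or untreated replicate 2 (0.0586). KIF4B is a retrogene nearly identical to KIF4A, so reads of the 2 could be split between them; it had at most 2.82 units in any library and was not tested.

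KIF18A, KIF15 and KIF2C did not pass the test. KIF18A, which damps the movement of chromosomes at the spindle's middle, had 169, 164 and 144 units with salinomycin, against 174, 198 and 180 units untreated. The groups lay close together without overlapping, with a log2 change of -0.21 (SE 0.105, adjusted p = 0.082, and 0.0202 with upper-quartile scaling). KIF15, a motor that helps hold the spindle bipolar, had 15.7, 16.9 and 16.9 units with salinomycin, against 11.9, 11.7 and 18.1 units untreated. KIF2C, a microtubule-end depolymerase of centromeres, had 8.33, 12.2 and 11.3 units with salinomycin, against 13.0, 13.8 and 10.7 units untreated. Both genes overlapped between groups at these low levels, with adjusted p = 0.377 for KIF15 and 0.471 for KIF2C.

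**Figure D2:**
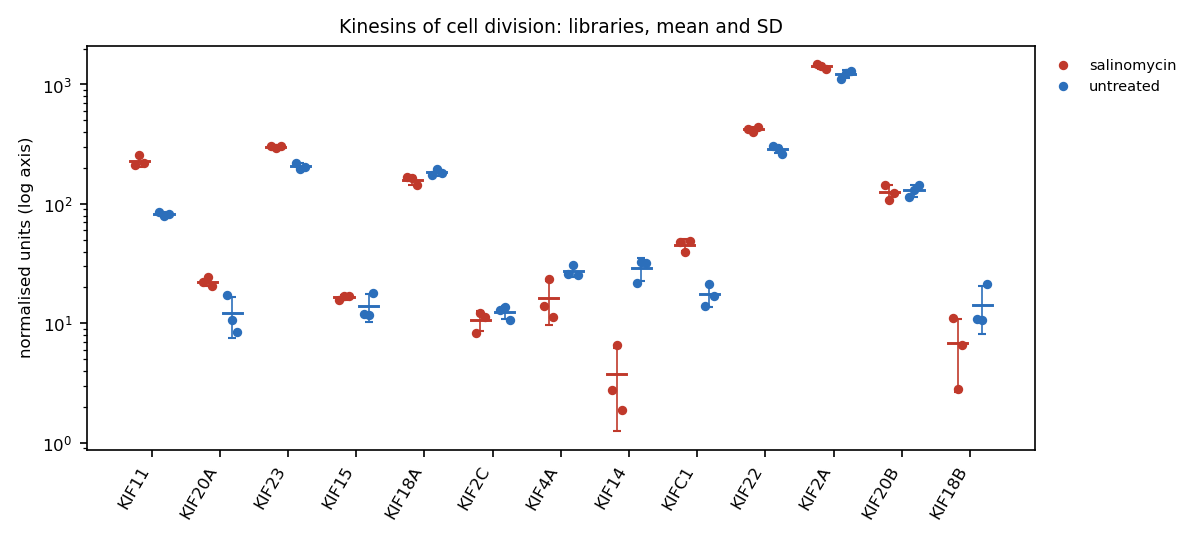
Normalised units (log axis) of the 8 mitotic kinesins and of the other division kinesins in each of 3 salinomycin and 3 untreated libraries, with mean and SD. The 3 salinomycin libraries of KIF11 (214 to 259) lie above its untreated ones (79.8 to 85.4), and those of KIF14 (1.88 to 6.56) lie below its untreated ones (21.6 to 33.0).

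Among the other division kinesins, 3 of 5 tested genes rose, 1 fell and 1 did not pass. Thus 80% were called, beside 81.9% of all tested genes. KIFC1, a minus-end motor that gathers extra centrosomes into a bipolar spindle, had 48.1, 39.4 and 48.8 units with salinomycin, against 14.1, 21.3 and 17.1 units in untreated libraries. All salinomycin libraries exceeded all untreated ones, and the gene was 2.54-fold higher (log2 1.34, SE 0.216, adjusted p = 0.000101). KIFC1 shares 12.7% of its exonic bases with RPL12P1, a processed pseudogene on the opposite strand that has no value in these data. KIF22, a motor that binds chromosome arms, averaged 420 ± 22.8 units with salinomycin and 287 ± 21.5 units untreated (SD, n = 3 each), 1.46-fold higher with adjusted p = 6.21e-05. KIF2A, a depolymerase of spindle poles that also acts in neurons, averaged 1421 units with salinomycin and 1224 units untreated. Its groups came close, at 1348 units in the lowest salinomycin library and 1306 in the highest untreated one, and it was 1.16-fold higher with adjusted p = 0.00929 (0.0796 with upper-quartile scaling). On the same strand it shares 9% of its exonic bases with IPO11, which averaged 745 units with salinomycin and 340 units untreated (log2 1.14), so this small difference is uncertain. KIF20B, a kinesin of cytokinesis, overlapped between groups, with a log2 change of -0.05 (adjusted p = 0.73). KIF18B, a depolymerase of astral microtubules, had 11.1, 2.81 and 6.57 units with salinomycin, against 10.8, 10.6 and 21.3 units untreated. Its groups overlapped, since salinomycin replicate 1 was above 2 untreated libraries. It passed the threshold at adjusted p = 0.0462 (log2 -1.05), and lost the call under 6 alternatives, with adjusted p between 0.0504 and 0.19.

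Per kilobase of the principal transcript, the 8 mitotic kinesins together held 190, 200.2 and 183.9 units in salinomycin libraries, against 146.6, 147.2 and 142.6 units in untreated libraries. That is 3.97%, 4.14% and 3.97% of all kinesin signal per kilobase with salinomycin, against 2.82%, 2.86% and 2.57% untreated. The sum is therefore higher in each salinomycin library, while the genes within it moved both ways. Its largest parts were KIF23 (81.0 units per kilobase with salinomycin, 55.6 untreated), KIF11 (47.4 and 17.0) and KIF18A (44.6 and 51.6). KIF4A (3.73 and 6.32) and KIF14 (0.514 and 3.97), which fell, were small parts of it. Of proliferation genes outside the family, MKI67 averaged 12.1 ± 3.30 units with salinomycin and 51.3 ± 18.5 units untreated, and TOP2A 35.2 ± 2.86 units with salinomycin and 282 ± 5.48 units untreated. The p21 gene CDKN1A averaged 25741 ± 1112 units with salinomycin and 19077 ± 939 units untreated (SD, n = 3 each). LMNB1, the lamin B1 gene that is usually low in senescent cells, averaged 183 ± 17.0 units with salinomycin and 107 ± 6.29 units untreated, 1.71-fold higher (adjusted p = 4.22e-05). Their part in the changes of mitotic kinesins was not tested.

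All 17 transport kinesins passed the test, 8 higher and 9 lower, and in all 17 the groups did not overlap, beside 81.9% called and 83.0% without overlap among all tested genes. The member with the largest change was KIF1A, the kinesin that carries synaptic vesicle precursors and dense-core vesicles in neurons, at chromosome 2, 240713761-240821036. It had 1796, 1899 and 1865 units in salinomycin libraries, against 31.4, 22.3 and 41.6 units in untreated libraries. These values rest on 6450 recovered reads with salinomycin and 81 reads untreated, and the libraries of each group lay close together. KIF1A was 58.3-fold higher (log2 5.87, SE 0.169, adjusted p = 3.01e-11), between 47.7-fold and 67.5-fold over the alternatives tried.

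KIF5C, a heavy chain of conventional kinesin that is mostly neuronal, lies on chromosome 2 at 148875250-149026759. It had 193, 177 and 181 units with salinomycin, against 20.5, 35.1 and 34.1 units in untreated libraries. The lowest salinomycin library stood far above the highest untreated one, and the gene was 6.13-fold higher (log2 2.61, SE 0.192, adjusted p = 8.7e-08). KIF21B, a kinesin best known in neurons and lymphocytes, lies on chromosome 1 at 200969390-201023700. It had 674, 609 and 592 units with salinomycin, against 114, 134 and 132 units untreated. Its groups were as clearly apart, and it was 4.91-fold higher (log2 2.30, SE 0.0937, adjusted p = 4.68e-10). KIF16B, an early endosome motor, had 1720, 1848 and 1678 units with salinomycin, against 872, 845 and 966 units untreated, 1.96-fold higher with adjusted p = 3.65e-08.

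The other risers moved less. KIF1B, a motor of mitochondria and synaptic vesicle precursors, averaged 1463 ± 146 units with salinomycin and 876 ± 42.9 units untreated, 1.67-fold higher (adjusted p = 1.82e-06). KIF3A, a shared subunit of the heterotrimeric kinesin-2 motors that build cilia, averaged 749 ± 47.2 units with salinomycin and 470 ± 53.1 units untreated (log2 0.68, adjusted p = 1.57e-05). KIF21A was 1.24-fold higher (adjusted p = 0.00105). The ubiquitous conventional kinesin KIF5B was 1.17-fold higher (adjusted p = 0.0038), with 3835 ± 190 units with salinomycin and 3278 ± 219 units untreated (SD, n = 3 each). All 4 had every salinomycin library above every untreated one.

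The transport kinesins that fell included KIF1C, a close relative of KIF1A known for Golgi-to-endoplasmic-reticulum and integrin traffic, at chromosome 17, 4997948-5028401. It had 2971, 3083 and 3135 units with salinomycin, against 6408, 5998 and 6679 units in untreated libraries. Every salinomycin library was far below every untreated one, and KIF1C fell by 1.05 on the log2 scale (SE 0.0523, adjusted p = 2.61e-09), 2.08-fold lower. KIFC3, a minus-end motor found at epithelial adherens junctions, had 937, 1039 and 1052 units with salinomycin, against 2256, 2120 and 2436 units untreated, 2.25-fold lower (adjusted p = 8.25e-09). KIF13B, which carries membrane proteins and scaffold proteins, had 498, 528 and 491 units with salinomycin, against 986, 1155 and 1215 units untreated, 2.20-fold lower (adjusted p = 5.16e-08). Neither KIFC3 nor KIF13B showed overlap between groups.

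KIF5A, another neuronal heavy chain of conventional kinesin, had 23.1, 20.6 and 16.0 units with salinomycin, against 50.8, 52.1 and 69.4 units untreated. KIF5A was 2.80-fold lower (log2 -1.48, adjusted p = 3.49e-05), while its paralogues KIF5B and KIF5C were higher. KIF17, a kinesin-2 homodimer of dendrites and cilia, had 29.6, 31.9 and 31.9 units with salinomycin, against 83.2, 83.0 and 64.0 units untreated, 2.40-fold lower (adjusted p = 1.77e-05). Both of these weakly read genes were low in all 3 salinomycin libraries. KIFC2, KIF13A and KIF3C fell between 1.67-fold and 1.90-fold. KIFC2 shares 17.8% of its exonic bases with the antisense gene FOXH1, which was read at 13.7 units with salinomycin and 8.93 units untreated, well below KIFC2 itself. KIF3B, the usual partner of KIF3A, had 1782, 1821 and 1710 units with salinomycin, against 1891, 1966 and 2020 units untreated. Its fall was the smallest of the 17 (log2 -0.15, adjusted p = 0.0196), turning to 0.05 with library-size scaling and losing the call there (adjusted p = 0.43), without salinomycin replicate 3 (0.0653) and without untreated replicate 3 (0.0592). Library-size scaling moved the median of all tested genes to 0.21, against 0.02.

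**Figure D3:**
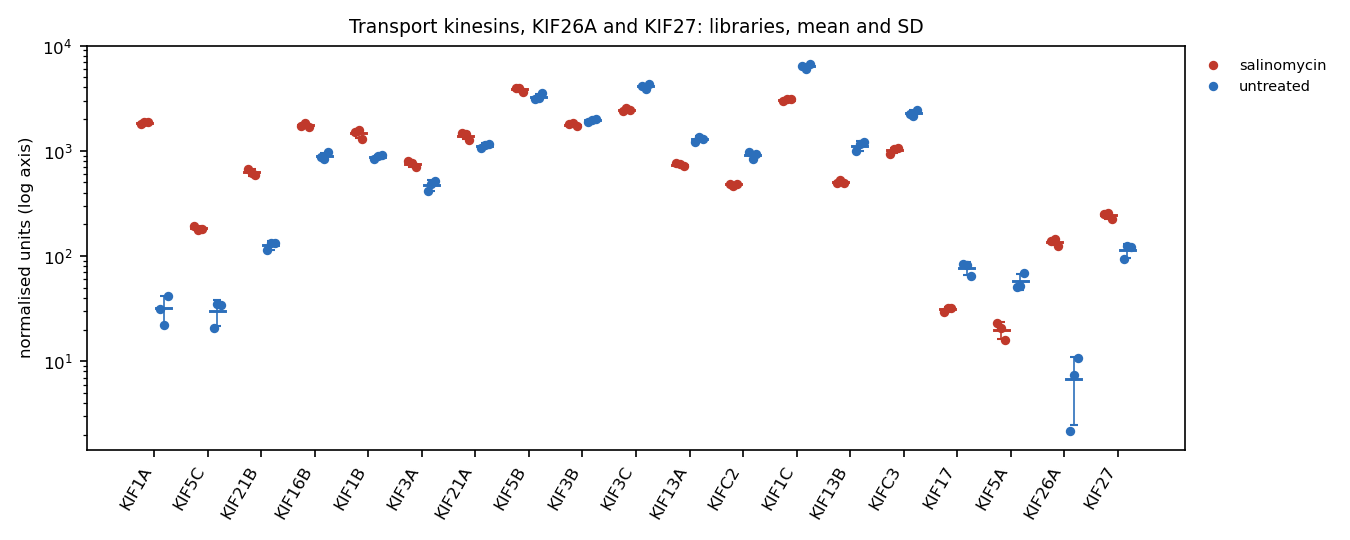
Normalised units (log axis) of the 17 transport kinesins in each of 3 salinomycin and 3 untreated libraries, with mean and SD. KIF26A and KIF27, which are not transport kinesins, are drawn after them. KIF1A stands out, with 1796 to 1899 units in salinomycin libraries, against 22.3 to 41.6 units in untreated libraries.

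Levels were compared between paralogues per kilobase of their principal transcripts, as shares of their summed level. Within KIF1A, KIF1B and KIF1C, KIF1A made up 28.2 ± 0.382% with salinomycin, against 0.394 ± 0.101% untreated, KIF1B 18.8 ± 1.74% with salinomycin, against 9.25 ± 0.562% untreated, and KIF1C 53.0 ± 1.41% with salinomycin, against 90.4 ± 0.51% untreated (mean and SD, n = 3 each). KIF1C was the most abundant of these 3 per kilobase in both groups. Their summed level was 730 units per kilobase with salinomycin and 889 units per kilobase untreated. In conventional kinesin, KIF5B held 95.6 ± 0.186% with salinomycin, against 97.5 ± 0.298% untreated, so that KIF5C at 3.89 ± 0.202% with salinomycin and 0.752 ± 0.191% untreated was a small part of that family despite its fold change. KIF5A made up 0.499 ± 0.0694% with salinomycin and 1.72 ± 0.185% untreated.

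Among kinesin-2 motor subunits, KIF3A was 13.7 ± 0.764% of KIF3A, KIF3B and KIF3C per kilobase with salinomycin, against 6.40 ± 0.658% untreated. KIF3C was 52.9 ± 1.14% with salinomycin and 65.9 ± 1.59% untreated. KIF21B was 23.1 ± 1.05% of KIF21A and KIF21B with salinomycin, against 6.99 ± 0.31% untreated. Within each of these families the shares of the 3 salinomycin libraries lay apart from those of the 3 untreated ones. All 17 transport kinesins together held 73.5%, 74.7% and 74.0% of kinesin signal per kilobase in salinomycin libraries, against 81.2%, 80.0% and 81.2% in untreated libraries. Their summed level was 3516, 3612 and 3427 units per kilobase with salinomycin, against 4215, 4117 and 4513 untreated.

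**Figure D4:**
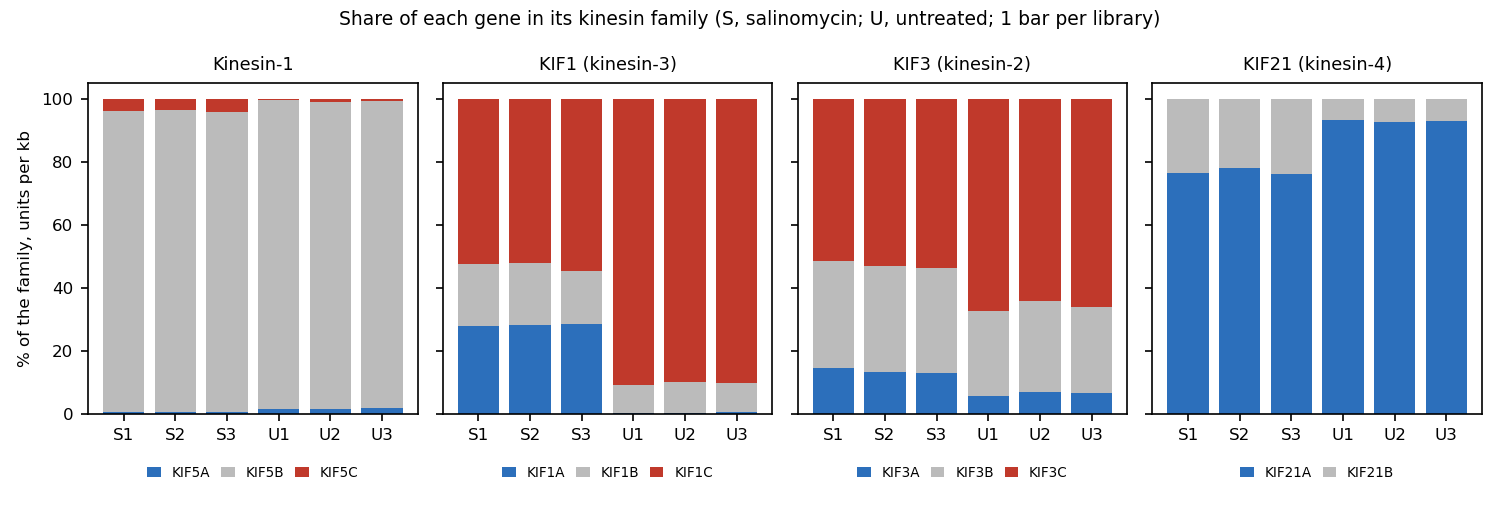
Share (%) of each paralogue in the summed level per kilobase of its kinesin family, as a stacked bar for each salinomycin and untreated library (n = 3 each). On average KIF1A takes 28.2% of the KIF1 family with salinomycin, against 0.394% untreated, while KIF5B stays above 95% of conventional kinesin in both groups.

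Of the kinesins of cilia, signalling and other functions, 7 of 10 were tested, with 4 higher, 1 lower and 2 not past the threshold. This is 71.4% called, beside 81.9% of all tested genes. KIF26A, an unusual kinesin whose motor domain lacks the ATP-driven movement of its relatives, lies on chromosome 14 at 104138723-104180894. It had 139, 145 and 126 units with salinomycin, against 2.16, 7.45 and 10.7 units in untreated libraries. The untreated level rests on 17 recovered reads, against 476 reads with salinomycin, and the groups were far apart. KIF26A was 20.3-fold higher (log2 4.34, SE 0.383, adjusted p = 4.81e-07), or 10.1-fold with a pseudocount of 8. KIF27, a relative of the fruit fly Hedgehog pathway kinesin Costal2, had 253, 255 and 224 units with salinomycin, against 94.0, 124 and 121 units untreated, 2.16-fold higher (adjusted p = 3.95e-06). KIF24, a regulator of centriole caps, was 1.52-fold higher (adjusted p = 0.00202). KIF7, the Hedgehog regulator of the ciliary tip, was 1.28-fold higher (adjusted p = 0.0117, and 0.0507 without salinomycin replicate 3), and 11.8% of its exonic bases overlap the antisense gene TICRR, also higher at 49.8 units with salinomycin and 21.4 untreated. KIF12 fell to 131 ± 11.5 units with salinomycin, against 231 ± 13.5 units untreated, 1.76-fold lower (adjusted p = 1.3e-05). KIF9, a kinesin of motile cilia, and KIF26B did not pass (adjusted p = 0.243 and 0.139). The untested KIF6 had 3.70 to 9.38 units with salinomycin and 3.24 to 5.32 units untreated, KIF25 had 0 to 3.75 units with salinomycin and 4.26 to 8.54 units untreated, and KIF19 had 0.926 to 2.82 units with salinomycin and 0 in all 3 untreated libraries.

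The 21 CENP genes were all tested. Among them 5 rose, 9 fell and 7 missed the threshold, and the median log2 change was -0.10. By share, 23.8% rose and 42.9% fell, beside 41.6% and 40.2% of all tested genes. CENPF and CENPE, the 2 kinetochore proteins of the family that are made mainly around mitosis, both fell. CENPF, on chromosome 1 at 214603195-214664588, had 26.8, 16.9 and 9.39 units with salinomycin, against 105, 169 and 164 units in untreated libraries. Both groups were spread, and even so the highest salinomycin library was far below the lowest untreated one. CENPF fell by 3.06 on the log2 scale (SE 0.314, adjusted p = 1.96e-06), 8.32-fold lower. CENPE, itself a plus-end kinesin that moves chromosomes to the spindle's middle, had 57.4, 51.6 and 46.0 units with salinomycin, against 82.2, 124 and 140 units untreated. Untreated replicate 1 was the lowest of its group in both genes and above all salinomycin libraries, and CENPE was 2.17-fold lower (log2 -1.12, SE 0.192, adjusted p = 0.000177).

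At the centromeric chromatin itself, CENPA and CENPB differed in direction. CENPB, which binds a short motif in alpha satellite repeats, had 2328, 2612 and 2752 units with salinomycin, against 1964, 1666 and 1988 units untreated. It was 1.37-fold higher (adjusted p = 0.000184). CENPA, the centromeric histone, had 6.48, 9.38 and 8.45 units with salinomycin, against 15.1, 14.9 and 12.8 units untreated. Its groups did not overlap but rest on 27 recovered reads with salinomycin and 38 untreated. CENPA was 1.69-fold lower (log2 -0.76, adjusted p = 0.0269), and lost the call with library-size scaling and without salinomycin replicate 1, untreated replicate 1 or untreated replicate 2 (adjusted p between 0.063 and 0.0819). It shares 7% of its exonic bases, on the same strand, with SLC35F6, which was higher (log2 1.48). Of genes for CENP-A loading, MIS18A was 2.26-fold higher (log2 1.18), and HJURP, the CENP-A chaperone, fell by 0.55 on the log2 scale.

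Of 15 tested CCAN genes named CENP, 3 rose, 5 fell and 7 did not pass, given here by subcomplex. The called share was 53.3%, beside 81.9% of all tested genes. CENPN and CENPL, the pair whose products form the CENP-L/N complex that touches the CENP-A nucleosome, both rose. CENPN, on chromosome 16 at 81006498-81033114, had 471, 487 and 453 units with salinomycin, against 190, 196 and 184 units in untreated libraries. CENPL had 168, 166 and 143 units with salinomycin, against 67.0, 83.0 and 68.3 units untreated. Neither gene showed overlap between groups. CENPN was 2.47-fold higher (log2 1.30, SE 0.0769, adjusted p = 1.19e-08) and CENPL 2.17-fold higher (log2 1.12, adjusted p = 6.12e-06). CENPN shares 12.8% of its exonic bases with the antisense gene CMC2, which was also higher (log2 0.98).

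In the histone-fold CENP-T/W/S/X complex, CENPX, CENPW and CENPT fell. CENPX, on chromosome 17 at 82018702-82024107, had 120, 127 and 138 units with salinomycin, against 490, 400 and 409 units untreated. CENPW, on chromosome 6 at 126340174-126348875, had 6.48, 11.3 and 10.3 units with salinomycin, against 51.9, 31.9 and 38.4 units untreated. In both genes every salinomycin library was below every untreated one by a wide margin, with CENPX 3.35-fold lower (log2 -1.74, SE 0.103, adjusted p = 1.19e-08) and CENPW 4.04-fold lower (log2 -2.02, SE 0.276, adjusted p = 2.62e-05). CENPT averaged 344 ± 22.9 units with salinomycin and 463 ± 45.4 units untreated, 1.34-fold lower (adjusted p = 0.000757). Of exonic bases, 10.8% of those of CENPT overlap the antisense gene TSNAXIP1 (log2 -0.96) and 2.8% of those of CENPX the antisense gene LRRC45 (log2 -2.63). CENPS overlapped between groups (log2 0.04, adjusted p = 0.909), and 64.7% of its exonic bases belong also to the read-through gene CENPS-CORT, so its value is uncertain.

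The CENP-O/P/Q/U/R complex was mixed. CENPO had 544, 569 and 561 units with salinomycin, against 284, 264 and 264 units untreated. Groups were tight and apart, and CENPO was 2.06-fold higher (log2 1.04, adjusted p = 4.37e-08). It shares 27% of its exonic bases with the antisense gene ADCY3, which went the other way (283 units with salinomycin and 1699 untreated). CENPQ averaged 28.3 ± 4.26 units with salinomycin and 56.4 ± 4.83 units untreated, 1.97-fold lower (adjusted p = 0.000331). ITGB3BP, the symbol under which CENP-R is listed and thus no member by the rule, had a log2 change of -0.91. CENPP and CENPU did not pass (adjusted p = 0.626 and 0.262), and CENPP shares 38% of its exonic bases with the antisense gene IPPK. CENPU shares 11.7% with the antisense gene PRIMPOL (95.6 units with salinomycin and 110 untreated). In the CENP-H/I/K/M complex, CENPH had 31.5, 36.6 and 42.2 units with salinomycin, against 57.3, 80.9 and 71.5 units untreated, 1.87-fold lower (adjusted p = 0.000625), while CENPI, CENPK and CENPM did not pass, with log2 changes of -0.10, 0.23 and 0.07. CENPC, the central scaffold of the network, did not pass either (log2 0.23, adjusted p = 0.176).

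CENPJ and CENPV carry the name without being CCAN subunits. CENPJ, a centriole-building protein, lies on chromosome 13 at 24882284-24922889. It had 451, 444 and 377 units with salinomycin, against 145, 172 and 173 units in untreated libraries. CENPV, which acts in microtubule bundling and centromere chromatin, had 354, 371 and 365 units with salinomycin, against 806, 771 and 743 units untreated. Both were separated without overlap, CENPJ 2.59-fold higher (log2 1.37, SE 0.104, adjusted p = 1.15e-07) and CENPV 2.12-fold lower (log2 -1.09, SE 0.0647, adjusted p = 1.3e-08). CENPV shares 9% of its exonic bases with the antisense gene PIGL, which was higher (log2 2.08).

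**Figure D5:**
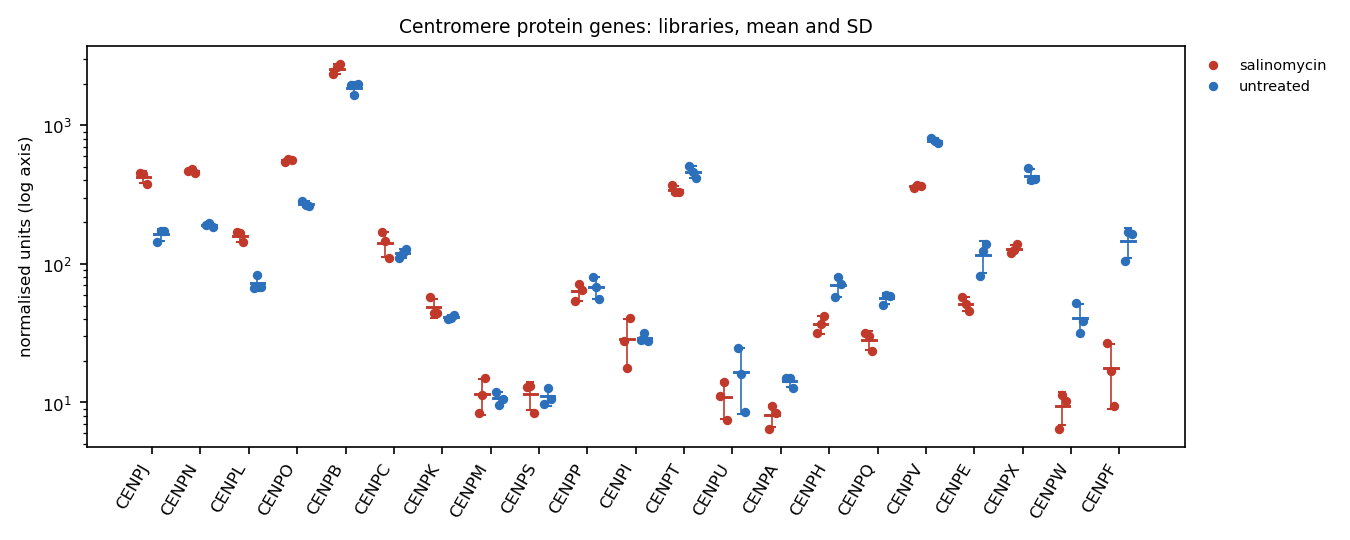
Normalised units (log axis) of the 21 CENP genes in each of 3 salinomycin and 3 untreated libraries, with mean and SD. Salinomycin libraries lie highest above untreated ones for CENPJ and CENPN (453 to 487 units, against 184 to 196 untreated) and farthest below for CENPF (9.39 to 26.8 units, against 105 to 169 untreated).

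Partners of these proteins outside the rule were read from lists of known complexes. Of 9 tested genes of the outer kinetochore's KNL1, MIS12 and NDC80 complexes, 2 rose, 3 fell and 4 did not pass. The called share was 55.6%, beside 81.9% of all tested genes. DSN1, a MIS12 complex subunit, had 747, 758 and 741 units with salinomycin, against 148, 161 and 137 units untreated (log2 2.33, adjusted p = 1.26e-10). ZWINT, a KNL1 partner, averaged 11.8 ± 4.80 units with salinomycin and 80.3 ± 7.22 units untreated (log2 -2.74, adjusted p = 1.7e-06). All 9 tested kinesin light chains and cargo adaptors passed, 6 higher and 3 lower, beside 81.9% called among all tested genes. KLC4, a light chain of conventional kinesin, averaged 2649 ± 23.4 units with salinomycin and 597 ± 25.5 units untreated (log2 2.15, adjusted p = 9.8e-12). KIFAP3, the non-motor subunit that completes heterotrimeric kinesin-2, averaged 2005 ± 17.0 units with salinomycin and 673 ± 47.6 units untreated (log2 1.58, adjusted p = 2.7e-10). MAPK8IP1, a scaffold that links conventional kinesin to cargo, averaged 108 ± 13.8 units with salinomycin and 304 ± 44.5 units untreated (log2 -1.48, adjusted p = 4.87e-07).

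In the authors' deposited table, 41 of the 58 members had an adjusted p under 0.05, 40 of them among the 45 called here, and no member called in both had the opposite sign. CENPC was called in the authors' deposited table and not here, and CENPA, CENPT, KIF3B, KIF4A and KIF18B were called here and not there. Deposited totals lay within 0.693% of each other because the authors rescaled them. Reads recovered from their rounding steps ranged between 14929443 and 19641149 in salinomycin libraries and between 13539959 and 16293117 in untreated libraries. In untreated replicate 1 the rounding steps did not set a factor apart from 1. Its 16293117 reads are therefore its deposited total less the 1 added per gene. Epithelial markers summed to 61090 to 70540 units with salinomycin, against 210300 to 238100 untreated, with 5 of 6 lower and 1 higher. Of 6 alveolar type 2 markers 4 were tested and all 4 were higher, with SFTPB and SFTPC at or near 0 in both groups. Immune markers summed to 47.8 to 72.3 units with salinomycin, against 193 to 226 untreated, with CD14 lower and LYZ higher of 2 tested. Fibroblast markers summed to 404 to 439 units with salinomycin, against 574 to 806 untreated (3 of 3 tested lower). Most of that sum was COL1A1, at 416 ± 18.3 units with salinomycin and 667 ± 128 untreated. COL1A2 and DCN were at or near 0 in both groups. Of all tested genes, 41.6% were higher and 40.2% lower. Endothelial markers summed to at most 10.2 units with salinomycin, against 15.1 untreated. The part of these shifts in the members' changes was not tested.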

How the data were processed

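Total RNA of 6 A549 libraries was sequenced, and the deposited table held 1 signal value per gene and library. These deposited signal values are whole numbers, scaled by the authors to near-equal totals, with 1 added in place of 0. The submitters' processing notes name GRCh38; no aligner or counter is given in the sources used here. Per the file headers the table also held the authors' log2 fold changes and adjusted p-values, the deposited log2 values lying within 0.005 of the log2 ratio of deposited group means. The deposited gene set table was not used here.

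The added 1 was subtracted, what remained was divided by trimmed-mean (TMM) factors (30% trim of ratios, 5% of levels), and log2 of units plus 1 was tested with limma 3.58.1 in R 4.3.3 with a mean-variance trend. The design plan named a count model for raw counts; limma took its place because the values are rescaled. The filter kept 13088 genes and set 3582 aside. Reads were estimated from the rounding steps of low values, with a factor of 1 kept for untreated replicate 1. They are not the authors' counts, and were used for read numbers and for limma-voom. Positions are GENCODE 29 on GRCh38. Promoters were matched to RefSeq by symbol, at the start site nearest the GENCODE start.

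Members, lists and tests were chosen with earlier results of these data known. The text gives every library's value for the mitotic kinesins and for members past the threshold with a log2 change of at least 1 in size, and usually at most 3 genes of a list outside the rule. A result of the list for CENP-A loading is not reported here. The 2-fold, overlap and other examples beyond that were chosen after their values were seen. Replicates compared on recovered reads gave chi-square values per gene between 2.86 and 6.74, so none was treated as a repeat. The fit was tried on simulated data in which few genes changed, so that trial cannot check the scaling where most genes change. Alternatives were 4 other scalings, no filter and a stricter one, 2 pseudocounts, limma-voom, leaving out each library and a replicate block.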

Additional observations from a re-analysis of the deposited data

How the results depend on the processing

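No member's call turned to the opposite sign under any of the 16 alternatives. All 58 calls stood with median-of-ratios scaling, TMM factors without mitochondrially encoded genes, a pseudocount of 8 and limma-voom on recovered reads, and all 41 left by the stricter filter. The median log2 change of mitotic kinesins, 0.02 as reported, was -0.0601 with upper-quartile scaling, 0.21 with library-size scaling and 0.54 with the stricter filter, and -0.0159 to 0.113 when each library was left out. The number of mitotic kinesins that fell, 2 as reported, was 3 with upper-quartile scaling, 1 with library-size scaling, 0 with the stricter filter, where KIF14 and KIF4A are not tested, and 1 to 2 when each library was left out. The median of transport kinesins, -0.15 as reported, was -0.23 with upper-quartile scaling, 0.0459 with library-size scaling and 0.0408 with the stricter filter. That of CENP genes, -0.10 as reported, was 0.0850 with library-size scaling and -0.264 to -0.0839 when each library was left out. Library-size scaling also added KIF9, CENPC and CENPK to the higher calls and changed the split of all tested genes to 6461 higher and 4353 lower, as against 5451 and 5266, and upper-quartile scaling to 5015 and 5720. CENPC was also called without salinomycin replicate 3 (adjusted p = 0.0211), and CENPU without untreated replicate 3 (0.0435). Same-numbered libraries did not deviate together (correlations -0.172, -0.0131 and -0.0326), so the numbers were not taken as pairs; with the replicate block 23 members were higher and 20 lower, KIF3B (0.0576) and CENPA (0.0523) being lost. Causes were not tested. Read numbers limit KIF2C, KIF14, KIF15, KIF18B, KIF20A, KIF26A, KIF26B, CENPA, CENPM, CENPS, CENPU and CENPW most. Some of these were low in a single group, as with KIF26A at 17 recovered reads untreated and CENPW at 32 with salinomycin.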

Other observations

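Of 17 tested transcription factors and cofactors that govern mitotic genes, 7 were higher with salinomycin, 9 lower and 1 did not pass, with a median log2 change of -0.27. By share, 41.2% were higher and 52.9% lower, beside 41.6% and 40.2% of all tested genes. MYBL2, the MYB protein that joins the MuvB core to switch on late cell-cycle genes, averaged 1.87 ± 0.937 units in salinomycin libraries and 34.6 ± 3.68 units in untreated libraries (SD, n = 3 each; log2 -3.68, adjusted p = 6.72e-07). FOXM1, the forkhead activator of G2 and mitotic genes, averaged 13.4 ± 1.32 units with salinomycin and 75.3 ± 7.57 units untreated (log2 -2.41, adjusted p = 1.47e-07). TFDP2, a dimer partner of E2F proteins, averaged 302 ± 23.7 units with salinomycin and 1536.5 ± 38.4 units untreated (log2 -2.35, adjusted p = 3.49e-11). All 3 were low in every salinomycin library. Subunits of the MuvB core went both ways. LIN52 (3.54-fold), LIN37 (3.21-fold) and LIN54 (2.59-fold) were higher with salinomycin, and LIN9 (log2 -1.29) and RBBP4 (log2 -1.07) were lower.

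Cytoplasmic dynein and dynactin, the minus-end motor that works against most kinesins, had 21 tested genes, 8 higher, 8 lower and 5 not past the threshold, with a median log2 change of 0.10. Called genes were 76.2% of these 21, beside 81.9% of all tested genes. DYNC1I1, an intermediate chain best known from neurons, averaged 20.6 ± 2.83 units with salinomycin and 2.14 ± 1.85 units untreated (log2 2.92, adjusted p = 3.93e-05). The dynactin subunit DCTN4 averaged 1797 ± 78.4 units with salinomycin and 762 ± 13.3 units untreated (log2 1.24), and DCTN3 1130 ± 94.5 units with salinomycin and 503 ± 37.6 units untreated (log2 1.17). No other dynein or dynactin gene changed 2-fold or more past the threshold.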
